A study of Mus musculus with 20 samples.

Results

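The genes described here mark the kidney tubule from the thick ascending limb of the loop of Henle to the collecting duct, together with the podocytes of the glomerulus. A list of 34 symbols was set by segment (6 thick limb, 7 distal convoluted tubule, 9 principal cell, 6 intercalated cell and 6 podocyte genes) and matched to the gene symbols in the transcript names, of 55642 genes in all. Hsd11b2-as matched no symbol and was not analysed here, so 33 genes were measured, 8 of them for principal cells. All 33 passed the filter on low counts.

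Kidney RNA came from adult male DBA/2J mice, an inbred strain, in bulk libraries of polyadenylated RNA. JQ1 is a small molecule that displaces BET proteins, readers of acetylated histones, from chromatin. It was given intraperitoneally at 50 mg/kg every day for 3 weeks. The groups were JQ1 treatment (3 libraries, end of dosing, 10 weeks of age), JQ1 recovery (3 libraries, 6 weeks after the last dose, 16 weeks of age) and vehicle (4 libraries, 3 from the treatment time at 10 weeks and 1 from the recovery time at 16 weeks). The 4 vehicle libraries served as 1 control group, so both comparisons with vehicle share them, and recovery differed in age from 3 of its 4 controls. The organ was compared to learn whether a compound studied for its action in the testis altered gene expression elsewhere, and whether any change remained after withdrawal.

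Each segment has its own transport task. The thick ascending limb takes up sodium, potassium and chloride without water and secretes uromodulin into the urine. The distal convoluted tubule takes up sodium chloride through a thiazide-sensitive carrier that WNK kinases regulate, principal cells of the collecting duct take up sodium through the epithelial channel ENaC and water through aquaporins, intercalated cells secrete acid or bicarbonate, and podocytes hold the slit diaphragm across which plasma is filtered.

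The kidney libraries held 13952474 to 26895303 reads. The library JQ1 treatment 1 stood apart from the other 9: 8 markers of fibroblasts and mesangium summed to 1593 CPM (read counts scaled to library size) in it, against 243 to 496 CPM elsewhere, and 7 adipocyte markers to 741 CPM, against 97.3 to 387 CPM. The listed segment genes were also fitted without this library. Results for genes of the wider lists and for markers of other cell types are given only with it.

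The upstream sequences of Pvalb and Umod are shown because these 2 genes passed the test at treatment under every alternative run. RefSeq entries on GRCm38.p6 covered 24 of the 33 genes, and the 250 bases before the annotated start were searched on both strands for 4 motifs. These were the TATA box TATAAA, the HNF1 half-site GTTAAT, the nuclear receptor half-site AAGGTCA and the forkhead motif TGTTTAC. Capitals mark a match. Pvalb is shown at the more upstream of its 2 starts, on the minus strand of chr15:78206401-78206650, and Umod on the minus strand of chr7:119479263-119479512.
Pvalb: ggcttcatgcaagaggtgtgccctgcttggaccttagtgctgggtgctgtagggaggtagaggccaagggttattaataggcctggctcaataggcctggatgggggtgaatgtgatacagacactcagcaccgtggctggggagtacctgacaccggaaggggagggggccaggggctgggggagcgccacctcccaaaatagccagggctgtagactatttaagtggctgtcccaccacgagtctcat
Umod: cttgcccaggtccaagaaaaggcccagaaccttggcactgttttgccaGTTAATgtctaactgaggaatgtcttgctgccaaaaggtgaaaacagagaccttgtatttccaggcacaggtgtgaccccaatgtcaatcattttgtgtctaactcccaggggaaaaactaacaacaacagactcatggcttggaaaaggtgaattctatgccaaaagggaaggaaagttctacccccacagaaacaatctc

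Umod held GTTAAT from 202 to 197 bases before its start, and it was the 1 gene of the 24 with that motif, which occurred in 6.44% of 32817 such windows. The Pvalb window held none of the 4. TATAAA occurred in 5 of the 24 genes (Aqp3, Avpr2, Slc12a3, Slc26a4 and Trpv5) and in 12.4% of all windows, the forkhead motif in 4 (Atp6v1b1, Avpr2, Egf and Slc12a1) and in 3.16%, and AAGGTCA in 0 and 4.08%. A gene counted if any of its start windows held the motif, whereas the percentages are shares of single windows, so they are unlike measures. A match describes the letters of the window and not a bound site.

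At the end of JQ1 treatment 3 of the 33 genes passed the test against vehicle, beside 4.13% of the 17158 genes tested. Pvalb of the distal convoluted tubule and Umod of the thick limb fell, beside 2.73% of all genes, and Car2 of the intercalated cells rose, beside 1.4%. An unadjusted p below 0.05 was found for 9 of the 33, beside 17.1% of all genes. Fitted values lay below 0 for 16 of the 33, beside 51.1% of all genes. Without JQ1 treatment 1 the count was also 3, with Slc12a1 in place of Car2. The median log2 fold change over the 33 genes was 0.02, that over all genes -0.01. In bulk tissue fewer cells of a type and less RNA per cell cannot be told apart. Every adjusted p below is from edgeR's quasi-likelihood test with Benjamini-Hochberg adjustment over the 17158 genes.

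**Figure D1:**
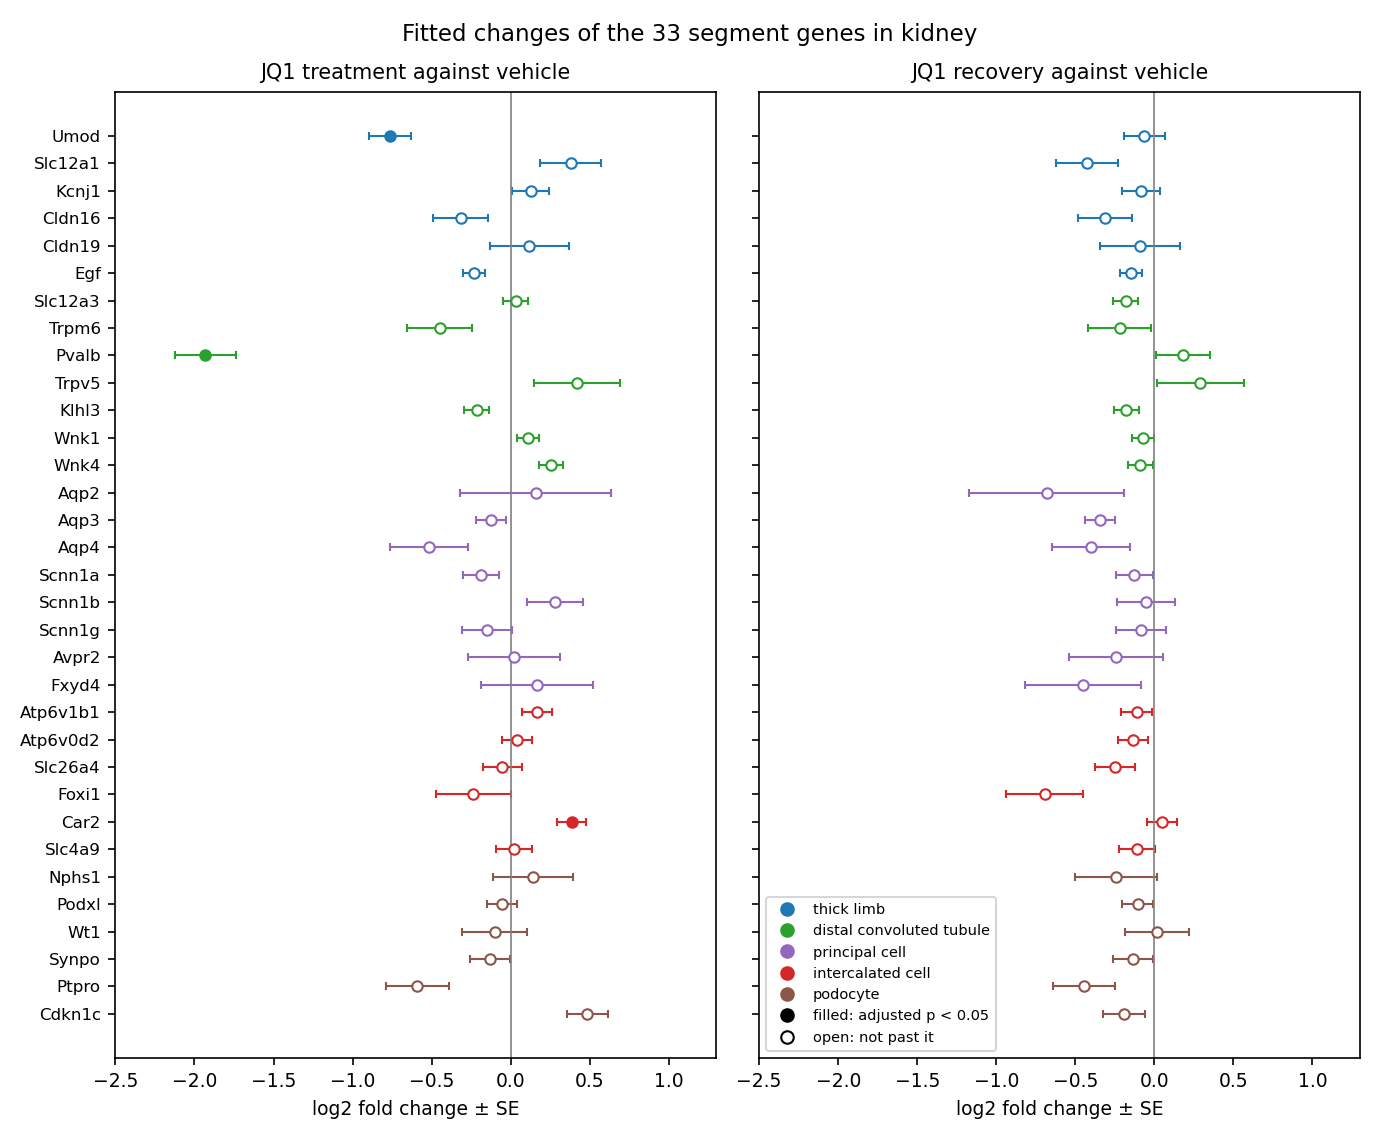
Log2 fold change ± SE of the 33 segment genes in kidney, JQ1 treatment against vehicle on the left and JQ1 recovery against vehicle on the right, coloured by segment, with filled points for an adjusted p below 0.05. Pvalb and Umod lie left of 0 and Car2 right of it as the 3 filled points at treatment, and no point is filled at recovery, where 29 of the 33 lie left of 0.

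Among the thick limb genes, uromodulin (Umod, ENSMUSG00000030963), the most abundant protein of normal urine, had 280.4, 432 and 356 CPM in the JQ1 treatment libraries, against 627, 555, 551 and 679.7 CPM in the vehicle libraries, the last value being that of the recovery-time vehicle. The highest JQ1 treatment library lay below the lowest vehicle library. The log2 fold change was -0.76 ± 0.13 (SE, adjusted p = 0.006835). JQ1 recovery libraries had 526, 636 and 571 CPM, within or next to the vehicle range, with a log2 fold change of -0.06 ± 0.13 (adjusted p = 0.9352). Between JQ1 treatment and JQ1 recovery the difference was -0.70 ± 0.14 (adjusted p = 0.01091), and without JQ1 recovery 2 its adjusted p was 0.05261.

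The fall of Umod passed the test in every one of the 7 fits that left out 1 library compared, with log2 fold changes from -0.92 to -0.61 and adjusted p up to 0.03802, the last without JQ1 treatment 3. In the library JQ1 treatment 2 the 6 thick limb genes summed to 1616 CPM, above all 4 vehicle libraries (1437 to 1589 CPM). Slc12a1 was the largest term there, at 696 CPM. Umod, Egf (378 CPM) and Cldn16 (6.17 CPM) were below every vehicle library, whereas Slc12a1, Kcnj1 and Cldn19 were above every vehicle library.

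The other thick limb genes did not pass. Slc12a1, the sodium-potassium-chloride carrier that loop diuretics block, had 362, 696 and 504 CPM in JQ1 treatment libraries, 267, 317 and 308 CPM in JQ1 recovery libraries and 432, 381, 427 and 359.8 CPM in vehicle libraries. Its treatment value overlapped vehicle (log2 fold change 0.38 ± 0.19, adjusted p = 0.3752), while all 3 recovery libraries lay below all 4 vehicle libraries (-0.43 ± 0.20, adjusted p = 0.5738). Without JQ1 treatment 1 the treatment value was 0.59 and passed (adjusted p = 0.01217). Umod and Slc12a1 thus had fitted values of opposite sign at treatment.

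Egf, the precursor of epidermal growth factor made by the thick limb and distal convoluted tubule, had 362, 378 and 374 CPM in JQ1 treatment libraries, against 444, 421, 480.4 and 401 CPM in vehicle libraries. The groups did not overlap, yet the adjusted p was 0.06876 (log2 fold change -0.23 ± 0.07), and it was 0.0344 without the recovery-time vehicle library. Cldn16, a claudin of the paracellular path for magnesium and calcium, had 4.24 to 6.17 CPM in JQ1 treatment libraries and 4.59 to 5.87 CPM in JQ1 recovery libraries, both below the 6.36 to 7.12 CPM of vehicle libraries (-0.32 ± 0.17, adjusted p = 0.372, and -0.31 ± 0.17, adjusted p = 0.6208). The potassium channel Kcnj1 and the claudin Cldn19 overlapped vehicle in both comparisons. The test called 1 of 6 thick limb genes at treatment and 0 of 6 at recovery, with medians of -0.06 and -0.12.

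Of 11 further thick limb genes tested from a wider list, Cldn3, a sealing claudin, fell at treatment. It had 1.81 to 3.12 CPM in JQ1 treatment libraries, against 4.00 to 5.99 CPM in vehicle libraries (log2 fold change -1.15 ± 0.23, adjusted p = 0.0058). The other 10 did not pass. Of all genes 2.73% fell and 1.4% rose at treatment, the shares to set beside the wider list of every segment.

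Among the distal convoluted tubule genes, Pvalb (ENSMUSG00000005716), which encodes parvalbumin, a calcium-binding protein of the early part of the segment, had 2.23, 3.74 and 4.94 CPM in JQ1 treatment libraries, against 14.6, 14.8, 15.5 and 11.2 CPM in vehicle libraries, the last again from the recovery time. All JQ1 treatment libraries were below all vehicle libraries. The log2 fold change of -1.93 ± 0.20 (adjusted p = 1.831e-05) was the most negative of the 33. JQ1 recovery libraries had 14.9, 17.1 and 15.7 CPM and overlapped vehicle (0.18 ± 0.17, adjusted p = 0.8029). JQ1 treatment was lower than JQ1 recovery by a log2 fold change of -2.11 ± 0.20 (adjusted p = 6.976e-06).

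Leaving out each library compared kept the treatment value of Pvalb between -2.18 and -1.71, with adjusted p up to 0.0001747. The gene was thinly covered, with at least 32 reads in each kidney library. Salmon placed all Pvalb TPM on the 977-base model Pvalb-201 in the 4 vehicle libraries and gave Pvalb-202 a TPM above 0 only in JQ1 treatment 2 (2.42), JQ1 recovery 2 (10.1) and JQ1 recovery 3 (3.25). The division between the 2 models is therefore uncertain, whereas the gene total was used for the test.

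**Figure D2:**
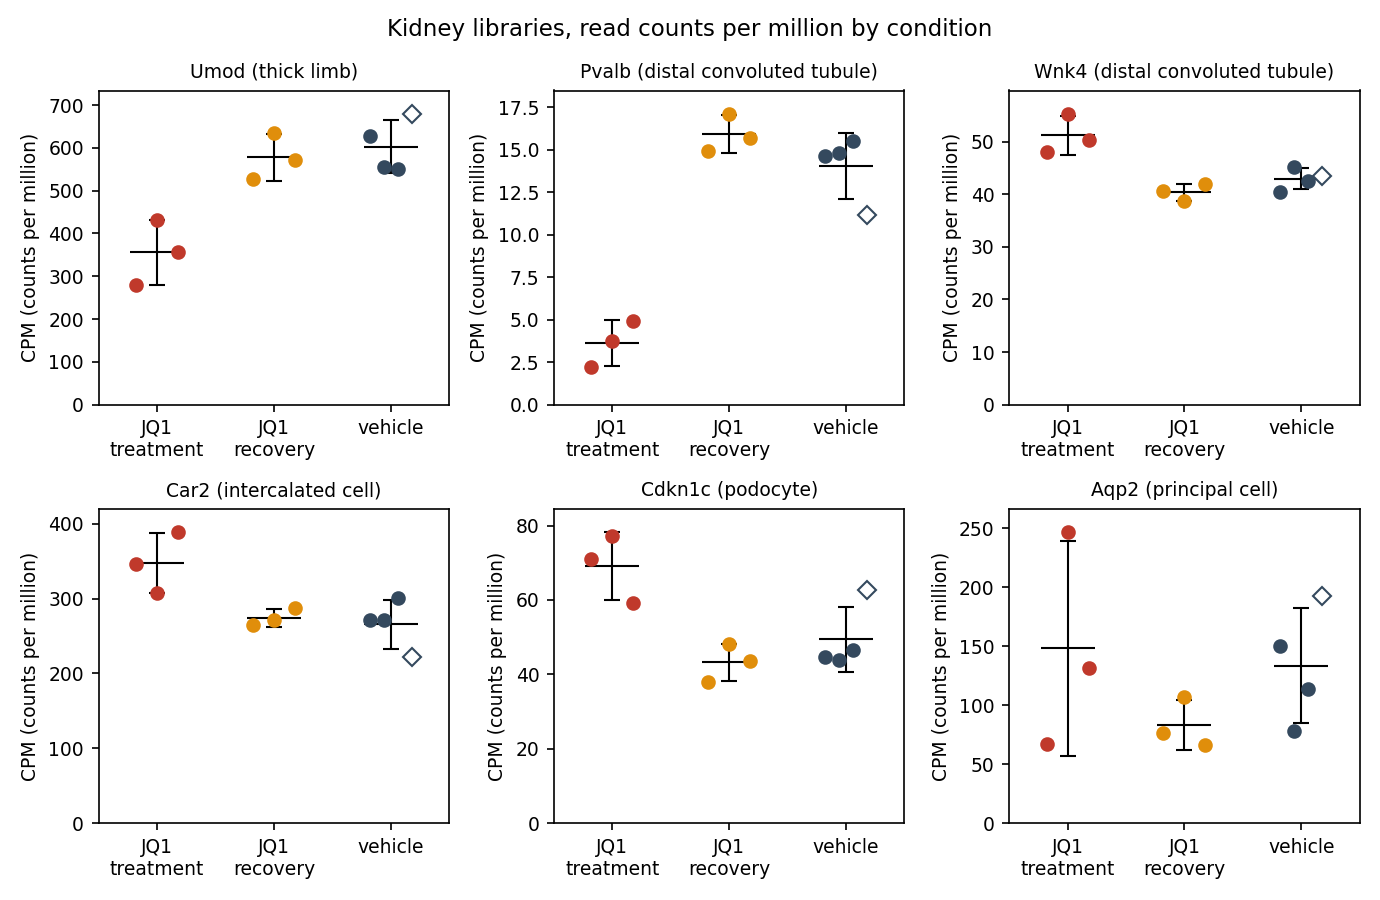
CPM in each kidney library for 6 segment genes, by condition on linear axes from 0, with the mean and SD as bars and the recovery-time vehicle library as an open diamond. Umod and Pvalb are lower in all 3 JQ1 treatment libraries than in any vehicle library, Car2 and Wnk4 are higher, Cdkn1c overlaps through the recovery-time vehicle library at 62.6 CPM, and Aqp2 spreads from 66.7 to 246 CPM within JQ1 treatment.

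The sodium chloride carrier itself, Slc12a3, which thiazides block, overlapped vehicle at treatment. It had 371, 374 and 435 CPM in JQ1 treatment libraries, 326, 331 and 360.4 CPM in JQ1 recovery libraries and 359, 433, 375 and 371 CPM in vehicle libraries. Its log2 fold changes were 0.03 ± 0.08 at treatment (adjusted p = 0.8905) and -0.18 ± 0.08 at recovery (adjusted p = 0.4985). The segment's defining carrier lay near the vehicle level in the libraries in which Pvalb was at its lowest. Whether the number of cells that express Pvalb changed was not tested.

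Wnk4, a kinase that regulates the carrier, had 48.1, 55.3 and 50.2 CPM in JQ1 treatment libraries, 40.5, 38.6 and 41.9 CPM in JQ1 recovery libraries and 40.4, 45.1, 42.6 and 43.5 CPM in vehicle libraries. The treatment libraries lay above both other groups. The difference passed against JQ1 recovery (log2 fold change 0.34 ± 0.08, adjusted p = 0.01711) and missed the threshold against vehicle (0.26 ± 0.08, adjusted p = 0.07563). The call against JQ1 recovery was lost without JQ1 recovery 1, JQ1 recovery 2 or JQ1 treatment 2, with adjusted p of 0.06217, 0.08213 and 0.06758, and with length-scaled counts (0.0589).

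Klhl3, the adaptor through which WNK kinases are marked for breakdown, had 41.9 to 46.0 CPM in JQ1 treatment libraries and 42.9 to 46.8 CPM in JQ1 recovery libraries, both below the 47.2 to 55.3 CPM of vehicle libraries. Neither value passed (-0.21 ± 0.08, adjusted p = 0.159, and -0.18 ± 0.08, adjusted p = 0.513). Wnk1 and the channels Trpm6 for magnesium and Trpv5 for calcium overlapped vehicle in both comparisons. Among 15 further genes of the segment Kcnj16, a potassium channel subunit of the basolateral membrane, rose at treatment, with 418 to 449 CPM in JQ1 treatment libraries, against 308 to 387 CPM in vehicle libraries (0.28 ± 0.08, adjusted p = 0.0438), and the other 14 did not pass.

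For principal cells 0 of 8 genes passed in any of the 3 comparisons, and 0 had an unadjusted p below 0.05 at treatment and 1 at recovery, beside 17.1% and 9.16% of all genes. Aqp2, the water channel that vasopressin moves to the apical membrane, had 66.7, 246 and 131 CPM in JQ1 treatment libraries, 76.0, 107 and 66.5 CPM in JQ1 recovery libraries and 149.8, 77.9, 114 and 192 CPM in vehicle libraries. The libraries of 1 group differed by more than the groups did. Its log2 fold changes were 0.16 ± 0.48 at treatment (adjusted p = 0.916) and -0.68 ± 0.49 at recovery (adjusted p = 0.7371), so that differences of this size were not detectable here.

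The principal cell sum, in which Aqp2 was the largest term in all 10 libraries, is set beside markers of the inner medulla. The sum was 200, 471 and 310 CPM in JQ1 treatment libraries, 236, 276 and 226 CPM in JQ1 recovery libraries and 360, 268, 317 and 396 CPM in vehicle libraries. In the same order, 7 thin limb and inner medulla markers summed to 167, 360.0 and 241 CPM, to 188, 199 and 188 CPM, and to 331, 195, 222 and 383 CPM. Aqp1, also made by the proximal tubule, was left out of that sum after its values were seen, and with it the 8 markers summed to 417 to 787 CPM, 579 to 697 CPM and 526 to 871 CPM. Not every gene of the sum was high where the markers were: Scnn1g was at its lowest (6.95 CPM) in JQ1 treatment 2 and Scnn1b (6.41 CPM) in the recovery-time vehicle library. None of the 8 markers passed the test at treatment or recovery, and their median log2 fold change at recovery was -0.53. The part of this in the principal cell levels was not tested.

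**Figure D3:**
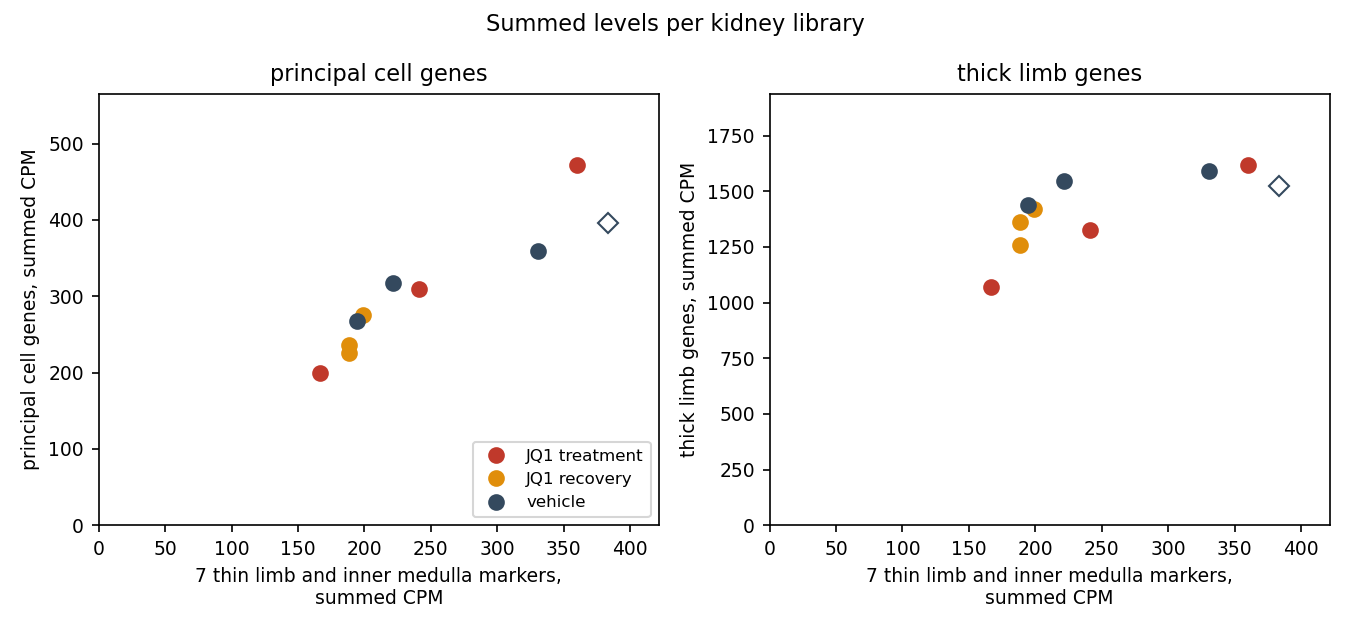
Summed CPM of the principal cell genes (left) and the thick limb genes (right) in each kidney library against the summed CPM of 7 thin limb and inner medulla markers, all axes linear from 0 and the recovery-time vehicle library drawn as an open diamond. JQ1 treatment 1 is lowest on both axes of the left plot, at 167 and 200 CPM, and the 3 JQ1 recovery libraries lie between 188 and 199 CPM on the horizontal axis.

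Aqp3 and Aqp4, the basolateral water channels, were the principal cell genes whose 3 JQ1 recovery libraries all lay below the 4 vehicle libraries. Aqp3 had 50.4 to 57.1 CPM in JQ1 recovery libraries, against 66.9 to 74.8 CPM in vehicle libraries (-0.34 ± 0.09, adjusted p = 0.2642), and Aqp4 had 38.3 to 44.0 CPM, against 46.3 to 60.6 CPM (-0.40 ± 0.25, adjusted p = 0.6835). Scnn1a, the alpha subunit of ENaC, had 23.6 to 27.1 CPM in JQ1 treatment libraries, against 27.1 to 31.2 CPM in vehicle libraries, without overlap at full precision (-0.19 ± 0.12, adjusted p = 0.4505). The other ENaC subunits Scnn1b and Scnn1g, the vasopressin receptor Avpr2 and the sodium pump modulator Fxyd4 overlapped vehicle in both comparisons.

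Of 17 further principal cell genes 2 fell at treatment, beside 2.73% of all genes. Krt8, a keratin of simple epithelia, had 22.8 to 28.0 CPM in JQ1 treatment libraries, against 35.5 to 38.9 CPM in vehicle libraries (-0.57 ± 0.09, adjusted p = 0.000872), and Hoxb7, a homeobox factor of the ureteric lineage, had 17.3 to 22.8 CPM, against 26.4 to 29.0 CPM (-0.42 ± 0.11, adjusted p = 0.0432). Hsd11b2, the enzyme that keeps cortisol and corticosterone from the mineralocorticoid receptor, passed only between JQ1 treatment and JQ1 recovery (0.35 ± 0.09, adjusted p = 0.0271). The remaining 14 did not pass in any comparison.

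Among the intercalated cell genes Car2, the cytosolic carbonic anhydrase, rose at treatment. It had 346, 307 and 388 CPM in JQ1 treatment libraries, against 271, 271, 300.0 and 221 CPM in vehicle libraries, the last from the recovery time. The groups did not overlap, and the gap between the nearest libraries was 307 to 300.0 CPM. The log2 fold change was 0.39 ± 0.09 (adjusted p = 0.02675). The adjusted p was 0.06838 without JQ1 treatment 1, 0.1481 without JQ1 treatment 3, 0.05695 without vehicle treatment 1 and 0.055 without vehicle treatment 2.

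JQ1 recovery libraries had 264, 272 and 288 CPM of Car2 and overlapped vehicle (0.05 ± 0.09, adjusted p = 0.9301). Car2 is also made by the proximal tubule, whose 9 markers summed to 10661 to 11896 CPM in JQ1 treatment libraries, 8882 to 9302 CPM in JQ1 recovery libraries and 7889 to 8640 CPM in vehicle libraries. Of those 9, 2 rose at treatment and 0 fell, beside 1.4% and 2.73% of all genes. Red cells hold this enzyme as well, and 5 red cell markers summed to 9349 to 12959 CPM in JQ1 treatment libraries. They summed to 5500 to 6232 CPM in JQ1 recovery libraries and 4601 to 8021 CPM in vehicle libraries. Of those 5, 3 rose at treatment, beside 1.4% of all genes. The part of either in the level of Car2 was not tested.

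Atp6v1b1, the proton pump subunit typical of intercalated cells, had 29.7, 28.3 and 30.2 CPM in JQ1 treatment libraries, 23.2, 24.2 and 25.2 CPM in JQ1 recovery libraries and 24.4, 23.8, 30.3 and 25.9 CPM in vehicle libraries. It overlapped vehicle in both comparisons (0.17 ± 0.10, adjusted p = 0.4046, and -0.11 ± 0.10, adjusted p = 0.7749). Atp6v0d2, another pump subunit, had 20.9 to 24.4 CPM in JQ1 recovery libraries, just below the 24.4 to 26.2 CPM of vehicle libraries (-0.14 ± 0.09, adjusted p = 0.7041). The exchangers Slc26a4 (pendrin) and Slc4a9 and the transcription factor Foxi1 overlapped vehicle in both comparisons.

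Of 18 further intercalated cell genes Car15, a membrane-bound carbonic anhydrase, rose at treatment (0.58 ± 0.13, adjusted p = 0.0163), with 42.4 to 60.1 CPM in JQ1 treatment libraries, against 31.2 to 41.2 CPM in vehicle libraries. Atp6v0a4, a subunit of the proton pump, fell, with 161 to 198 CPM, against 209 to 242 CPM (-0.35 ± 0.08, adjusted p = 0.0129). Both also differed from JQ1 recovery. Slc4a1, Atp6v1g3, Oxgr1 and Slc26a7 were higher in JQ1 treatment than in JQ1 recovery by log2 fold changes of 0.74, 0.31, 0.77 and 1.75 (adjusted p from 0.0204 to 0.0484) and did not pass against vehicle. The other 12 did not pass in any comparison. Of all genes 4.91% were lower and 2.41% higher in JQ1 treatment than in JQ1 recovery.

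For podocytes 0 of 6 genes passed against vehicle at either time by edgeR's test, while Cdkn1c passed at treatment under several alternatives given below. Nphs1, which encodes the slit diaphragm protein nephrin, had 3.20, 3.25 and 5.06 CPM in JQ1 treatment libraries, 3.60, 2.13 and 3.09 CPM in JQ1 recovery libraries and 4.21, 4.06, 2.90 and 2.78 CPM in vehicle libraries. The 3 groups overlapped, with log2 fold changes of 0.14 ± 0.25 at treatment (adjusted p = 0.8379) and -0.24 ± 0.26 at recovery (adjusted p = 0.8403). Podxl, the sialoprotein of the podocyte surface, the transcription factor Wt1 and the actin-binding Synpo overlapped vehicle in both comparisons.

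Cdkn1c, an inhibitor of cyclin-dependent kinases that mature podocytes express, had 71.1, 77.1 and 59.2 CPM in JQ1 treatment libraries, 37.9, 48.0 and 43.7 CPM in JQ1 recovery libraries and 44.6, 43.9, 46.5 and 62.6 CPM in vehicle libraries. The last vehicle library, that of the recovery time, reached into the treatment range. The treatment value against vehicle was 0.48 ± 0.13 (adjusted p = 0.05372), and without that library it was 0.63 and passed (adjusted p = 0.001767). It also passed by DESeq2 (adjusted p = 0.006784) and by voom (adjusted p = 0.04656). In edgeR it passed with DESeq2's size factors (adjusted p = 0.0441) and without mitochondrial genes (adjusted p = 0.04634). It did not pass with length-scaled counts, with only the libraries compared or with the replicate number as a block. When other single libraries were left out, it passed only without JQ1 recovery 1 (edgeR adjusted p = 0.04887) or JQ1 treatment 3 (0.03303). JQ1 treatment was higher than JQ1 recovery by 0.68 ± 0.14 (adjusted p = 0.009513).

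The 500-base retained intron model Cdkn1c-204 held much of the TPM of Cdkn1c. Its share was 50.7% ± 3.4 in JQ1 treatment libraries, 59.8% in JQ1 recovery libraries and 61.9% ± 4.6 in vehicle libraries. The spreads are SD, with n = 3 and 4. Of the reads, which the test used, it held a mean of 172 per kidney library. The protein-coding model Cdkn1c-202 held a mean of 820. The TPM of Cdkn1c-202 was 24.4 ± 3.22 in JQ1 treatment libraries and 17.8 ± 3.98 in vehicle libraries. That of Cdkn1c-204 was not higher at treatment. With length-scaled counts the adjusted p of Cdkn1c against JQ1 recovery was 0.05126. Ptpro, a receptor phosphatase of the foot processes, had 2.99 to 4.24 CPM in JQ1 treatment libraries and 3.60 to 3.84 CPM in JQ1 recovery libraries, both below the 4.31 to 5.66 CPM of vehicle libraries (-0.59 ± 0.20, adjusted p = 0.1161, and -0.44 ± 0.20, adjusted p = 0.5054).

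Of 24 further podocyte genes 1 rose against vehicle at treatment and 0 fell, beside 1.4% and 2.73% of all genes. Against JQ1 recovery, 3 were higher and 0 lower in JQ1 treatment, beside 2.41% and 4.91% of all genes. Among these Plce1, a phospholipase, and Dach1, a transcription factor, passed between JQ1 treatment and JQ1 recovery, with log2 fold changes of 0.78 and 0.59 (adjusted p = 0.00191 and 0.00698), and did not pass against vehicle (adjusted p = 0.163 and 0.417 at treatment).

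At 6 weeks after withdrawal 0 of the 33 genes passed against vehicle, beside 0.00583% of all genes. By DESeq2 and by voom the count was also 0. In edgeR's test 6 genes had an unadjusted p below 0.05, beside 9.16% of all genes. The fitted values lay below 0 for 29 of the 33, beside 51.4% of all genes, with a median of -0.14, that over all genes being -0.01. With the recovery-time vehicle library as the only control the number below 0 was 21 of 33. The 3 libraries did not overlap vehicle for 7 genes, all lower (Slc12a1, Cldn16, Klhl3, Aqp3, Aqp4, Atp6v0d2 and Ptpro), beside 5.2% of all genes lower and 5.26% higher in this way. At treatment 7 genes lay lower without overlap (Umod, Cldn16, Egf, Pvalb, Klhl3, Scnn1a and Ptpro) and 2 higher (Wnk4 and Car2), beside 8.31% and 6.85% of all genes.

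JQ1 treatment and JQ1 recovery differed directly in 4 of the 33 genes, Pvalb and Umod lower and Wnk4 and Cdkn1c higher in JQ1 treatment, beside 7.31% of all genes (4.91% lower and 2.41% higher), and 10 had an unadjusted p below 0.05, beside 21.8% of all genes. Without JQ1 recovery 2 the count was 2 and without JQ1 treatment 1 it was 7. Fitted values lay below 0 for 11 of the 33, beside 48.6% of all genes. The groups did not overlap for 9 genes higher and 3 lower, beside 12.5% and 14.7% of all genes. The 6 intercalated cell genes were all fitted above 0 (median 0.24), although 0 of them passed. Car2 (0.34 ± 0.10, adjusted p = 0.05138) and Slc12a1 (0.81 ± 0.21, adjusted p = 0.05666) missed the threshold. Both passed by DESeq2 (adjusted p = 0.02346 and 0.004645). Age also differed between these groups, 10 weeks against 16 weeks, and drug exposure and age cannot be told apart in this comparison.

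**Figure D4:**
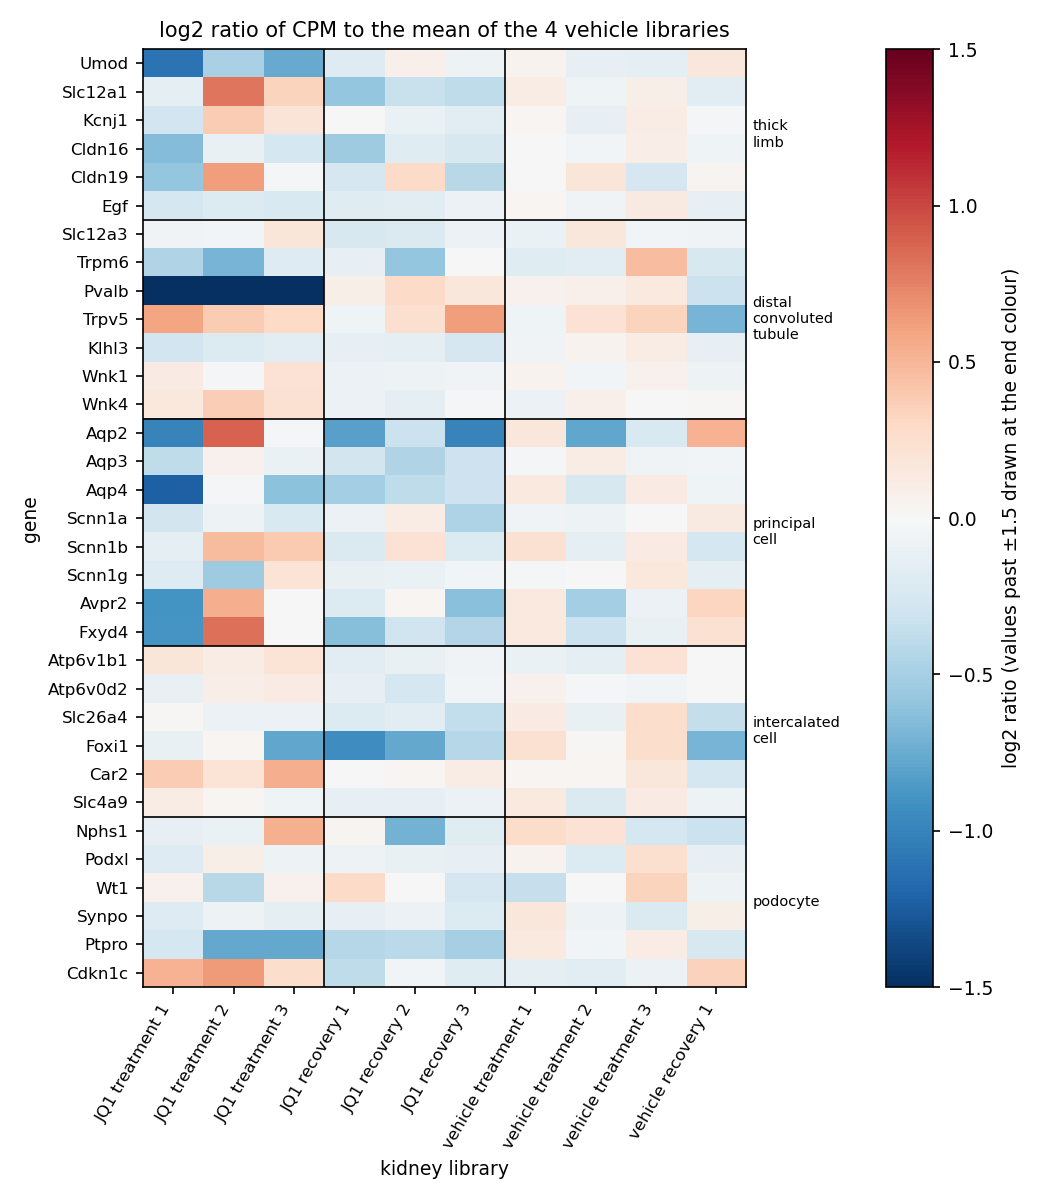
Log2 ratio of CPM to the mean of the 4 vehicle libraries for the 33 segment genes (rows, by segment) in the 10 kidney libraries (columns, by condition), with values past 1.5 in size drawn at the end colour. Pvalb is the row at the low end in all 3 JQ1 treatment libraries, and Aqp2, Avpr2 and Fxyd4 lie below 0 in JQ1 treatment 1 and above 0 in JQ1 treatment 2.

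The levels of the 33 genes per transcript length spanned 0.574 ± 0.164 TPM (Trpv5) to 237 ± 15.3 TPM (Wnk1) in the vehicle libraries (SD, n = 4). Umod had 194 ± 20.5 TPM, Egf 129.6 ± 18.5 TPM, Car2 129 ± 16.3 TPM and Wnk4 117 ± 3.43 TPM, and the levels of Egf and Car2 differed by less than their spread. Some of these levels rested on short models. Egf-205, of 798 bases, held 41.2% of the TPM of Egf in vehicle libraries. Wnk4-205, of 462 bases, held 98.0% of the TPM of Wnk4 in vehicle libraries, and Slc4a9-204, of 402 bases, 97.3% of that of Slc4a9. Wnk1-214, of 1215 bases, held 67.1% of the TPM of Wnk1, and the retained intron model Slc12a3-203 65.2% of that of Slc12a3. The order of levels by TPM for these genes therefore depends on how Salmon divided the reads between models.

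All 33 genes were higher in kidney than in liver in every library, the lowest kidney TPM of each exceeding its highest liver TPM. In 8 of the 10 liver libraries 27 of the 33 were at or below 1 TPM. The exceptions were Wnk1 (up to 39.8 TPM), Wnk4, Scnn1a, Car2, Slc4a9 and Cdkn1c (1.42 to 2.87 TPM at most).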

How the data were processed

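Kidney and liver RNA was sequenced, 10 libraries each. The authors used fastp 0.20.1 for trimming, and Salmon 1.10.0 to assign reads to mouse transcripts. The deposited files give, per transcript, the estimated count of reads, the TPM and the length. A gene's count was the rounded sum over its transcripts. Genes were kept by filterByExpr (minimum count 10, minimum total 15) and tested with edgeR 4.0.16 in R 4.3.3 (TMM, robust quasi-likelihood F-test, 3 conditions, 10 kidney libraries), after the fit had been tested on simulated data. CPM used the same factors. The study fitted DESeq2 to the same 3 conditions. DESeq2 1.42.0, voom of limma 3.58.1 and other settings were alternatives. Genes rose or fell, in the wording used here, at an adjusted p below 0.05.

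The 33 genes and all lists were chosen with earlier results of these data known. Values per library are given for genes past that threshold and for Umod, Slc12a3, Aqp2, Atp6v1b1 and Nphs1. Fold changes are also given for genes without overlap, and further-list genes are named where they passed, apart from some that are not reported here. Slc12a1 and Egf are also given per library, a choice made after their values were seen. Samples were grouped by GEO's labels, a supplement legend giving other vehicle numbers and a shorter recovery. The labels do not say that libraries came from separate animals, so p-values measure the spread between libraries. No pair of kidney libraries of the same condition agreed within sampling noise (chi-square per degree of freedom 7.43 to 52.6), and other pairs were not compared. The labelled build and the annotation release differ, so coordinates are given only for RefSeq windows.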

Additional observations from a re-analysis of the deposited data

Results flagged for a closer look

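The JQ1 effect on Pvalb differed between the 2 times when each JQ1 group was set against the vehicle of its own time, by a log2 value of -2.54 ± 0.33 (treatment minus recovery, edgeR adjusted p = 0.001399), from -2.02 at treatment and 0.52 at recovery. For Cdkn1c the difference was 1.15 ± 0.17 (edgeR adjusted p = 0.004073), from 0.63 and -0.52. The recovery-time vehicle arm is 1 library, assumed in this fit to vary like the other groups, which alone supply the spread, so neither p has a replicate check of that arm. In that library Pvalb was lowest and Cdkn1c highest of the 4. Of all 17158 genes 0.425% passed this test.

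Among the 4 vehicle libraries a library stood far from the other 3 in 3 of 38 values examined (33 genes and 5 segment sums), where chance gives about 1 in 20. These were Trpm6 in vehicle treatment 3 (11.3 CPM, the nearest other at 7.31), Aqp3 in vehicle treatment 2 (74.8 CPM, 67.8) and Cdkn1c in vehicle recovery 1 (62.6 CPM, 46.5).

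Kidney transcripts appeared in 2 liver libraries. Umod had 27.4 TPM in liver JQ1 recovery 2 and 16.2 TPM in liver JQ1 recovery 3, against at most 0.048 TPM in the other 8, and the 33 genes summed to 367 and 138 TPM there, against 34.4 to 51.5 TPM in the other 8.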

How the results depend on the processing

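The falls of Umod and Pvalb at treatment passed in all 19 alternatives run on that comparison (9 settings and 10 libraries left out in turn). The number of the 33 genes past the threshold at treatment was 3, and it was 6 by DESeq2 (adding Egf, Wnk4 and Cdkn1c), 5 with the treatment-time vehicle alone (adding Egf and Cdkn1c) and 2 to 5 when a library was left out. It was 2, without Car2, with length-scaled counts or only the libraries compared. Voom, DESeq2's size factors, no filter on low counts and no mitochondrial genes each added Cdkn1c to the number. At recovery it was 0 throughout, except 1 (Aqp3) without the filter on low counts. Between JQ1 treatment and JQ1 recovery it was 4, and 2 to 7 when a library was left out, and DESeq2 added Slc12a1 and Car2. Replicate numbers did not pair the libraries (correlations of same-numbered deviations from -0.132 to 0.102, 1 of 9 over 0.1), and with the replicate number as a block the 3 counts were 3, 0 and 6. The share of all genes past the threshold in each alternative is not given here. A larger or smaller count among the 33 is therefore not a result about these genes. Depth limits the low genes, of which Trpv5 had at least 27 reads in a library, Pvalb 32 and Nphs1 40.

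Segment medians of the log2 fold change moved by more than the spread between vehicle libraries as follows. At treatment the podocyte median was 0.021 with length-scaled counts, and leaving out a library gave -0.25 to 0.053 (thick limb), -0.31 to 0.15 (principal cell) and -0.12 to 0.044 (podocyte). At recovery the thick limb gave -0.23 to -0.11. Between JQ1 treatment and JQ1 recovery the thick limb gave -0.12 to 0.25, the distal convoluted tubule -0.016 to 0.19 and the principal cell genes 0.092 to 0.41.

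The fitted value of a single gene changed sign in 60 of 1848 alternative values, none past the threshold (smallest adjusted p 0.4287), and the cause was not tested. At treatment these were, with length-scaled counts, Cldn19 (-0.042), Slc4a9 (-0.039) and Synpo (0.042), and with the replicate block Avpr2 (-0.029). Leaving out a library gave for Kcnj1 -0.026 to 0.29, Cldn19 -0.26 to 0.36, Slc12a3 -0.0455 to 0.094, Aqp2 -0.43 to 0.51, Scnn1g -0.36 to 0.024, Avpr2 -0.37 to 0.31, Fxyd4 -0.37 to 0.48, Slc26a4 -0.15 to 0.061, Slc4a9 -0.0419 to 0.081, Nphs1 -0.10 to 0.26, Podxl -0.13 to 0.0447 and Wt1 -0.19 to 0.054. At recovery voom gave Wt1 -0.0058, and the recovery-time vehicle alone gave Trpm6 0.0405, Wnk1 0.018, Scnn1b 0.22, Scnn1g 0.069, Slc26a4 0.12, Foxi1 0.009, Nphs1 0.086 and Podxl 0.032. Leaving out a library gave for Umod -0.13 to 0.0075, Cldn19 -0.33 to 0.048, Scnn1a -0.26 to 0.016, Scnn1b -0.20 to 0.038, Car2 -0.025 to 0.12 and Wt1 -0.13 to 0.16. Between JQ1 treatment and JQ1 recovery voom and leaving out mitochondrial genes gave Cldn16 0.019 and 0.004, and length-scaled counts Egf 0.11. Leaving out a library gave for Cldn16 -0.13 to 0.13, Cldn19 -0.17 to 0.45, Trpv5 -0.021 to 0.32, Aqp4 -0.48 to 0.12, Scnn1a -0.20 to 0.078, Scnn1g -0.28 to 0.11, Avpr2 -0.13 to 0.55, Podxl -0.027 to 0.11, Wt1 -0.24 to 0.038 and Synpo -0.028 to 0.036.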
